A study of Mus musculus with 4 samples.

Results

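The genes described here are 9 receptor tyrosine kinases of 4 families (Met and Mst1r; Axl, Tyro3 and Mertk; Ddr1 and Ddr2; Ror1 and Ror2) and Gas6, a ligand of the Axl family. They were chosen by symbol and are 10 of the 14847 genes with 1 symbol measured at gene level. At exon level they had 200 of 229581 probesets, each covering an exon or part of one. The RNA came from NMuMG, an established line of normal mouse mammary gland epithelial cells, hybridised to Affymetrix exon arrays. The cells were grown in Dulbecco's medium with glucose at 4.5 g/l, 10% fetal bovine serum and insulin at 10 ug/ml, so both conditions received insulin and serum. One culture condition was left untreated, and the other received 1 ng/ml recombinant human TGF-beta1, a cytokine known to drive epithelial-mesenchymal transition, over 24 h. Each condition was read on 1 array per level, and the gene and exon columns were treated as readings of the same 2 samples, so no difference below has a replicate check and no p-value was computed.

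Receptor tyrosine kinases are membrane proteins that bind a ligand outside the cell and phosphorylate tyrosines inside it. Met binds hepatocyte growth factor (Hgf), which scatters epithelial cells and drives tubule branching in the mammary gland, and Mst1r (also called Ron or Stk) binds the related macrophage-stimulating protein (Mst1). Axl, Tyro3 and Mertk bind the vitamin K-dependent proteins Gas6 and, for Tyro3 and Mertk, protein S (Pros1), and are known for the clearance of dying cells. Ddr1 and Ddr2 are activated by collagen, with Ddr1 known mainly from epithelia and Ddr2 from mesenchymal cells, and Ror1 and Ror2 are receptors of Wnt5a that act in planar cell polarity.

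Values are intensities on a linear scale, and differences, TGF-beta minus untreated, are on the scale log2(intensity + 1). A gene was at level if either array gave it 124 or more, the median of all gene-level values, and a probeset at 265 or more in either, the median at exon level. The median difference was −0.14 over all clusters and −0.27 over genes at level, or −0.01 after quantile normalization, so the direction of small differences depends on the scaling. Intensities of different genes were not set against each other as amounts of RNA. Of the epithelial markers, 5 of 7 measured were at level. Among these, Cdh1 (4153 and 1698), Krt19 (4612 and 578) and Ocln (550 and 171) were at least 2-fold lower with TGF-beta. That is 3 of 5, beside 8.7% of all genes at level. The other 2, Krt18 (8494 and 9785) and Cldn3 (139 and 160), were higher. The summed intensity of the 7 epithelial markers was 18105 without and 12546 with TGF-beta. Epcam and Cldn7 were below level in both arrays. Fibroblast markers had 1 of 7 at level, Col1a1, and their summed intensity was 498 without and 841 with TGF-beta. Leukocyte markers, relevant to receptors known from macrophages, had 1 of 6 at level (Cd68), and their sums were 503 and 442. Endothelial markers had 1 of 5 at level (Cd34; sums 358 and 297), adipocyte markers 1 of 3 (Plin1; 187 and 300.3) and myoepithelial markers 1 of 6 (Acta2; 421 and 736). The leukocyte and endothelial sums were lower with TGF-beta through Cd68 (317 to 190) and Cd34 (197 to 66.3). The other 4 endothelial markers, all below level, were higher. So were the other 5 leukocyte markers, also below level, except Ptprc (16.9 and 16.6). No marker was listed at 0. The part of these markers in the differences below was not tested, and in bulk RNA fewer cells of a type and less RNA per cell cannot be told apart.

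Met was lower with TGF-beta, Ror1, Ror2, Tyro3 and Mst1r had values above those of untreated cells, and Axl and Ddr1 differed little. None of the 7 receptors at level reached a 2-fold difference, against a background of 2.28% of the 9159 genes at level that were higher by 2-fold or more and 8.7% that were lower by as much. At 1.5-fold, 3 were higher (Tyro3, Ror1 and Ror2; background 6.25%) and 1 was lower (Met; background 25.3%). Of the 7, 5 had differences above 0, while 27.7% of all genes at level did. Their median was 0.51, beside −0.27 for all genes at level. Tyro3 and Ror2 reached the level rule only through the TGF-beta array, where they were higher, so this count and median are descriptions and support nothing; over all 10 genes the median was 0.12. Mertk, Ddr2 and Gas6 were below the level rule in both arrays. The plot of gene-level intensities shows each pair of values.

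**Figure D1:**
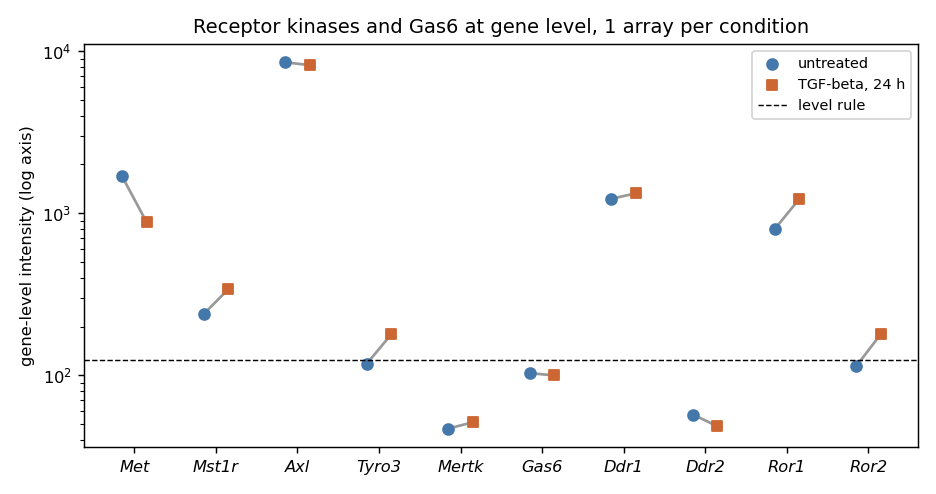
Gene-level intensity (log axis) of the 9 receptor kinases and Gas6 in untreated cells (circles) and after 24 h of TGF-beta (squares), 1 array each; the dashed line is the level rule of 124. Met has 1686 and 881, Ror1 796 and 1219, Axl has 8545 and 8207, and Mertk, Gas6 and Ddr2 lie under the line in both arrays.

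To show the regulatory sequence next to the values, the 250 bases before the annotated start are printed for Met, the receptor that was lower, for Ror1 and Ror2, which were higher, for Axl, which differed little, and for both annotated starts of Mst1r. They are RefSeq sequences of build GRCm38.p6, written 5′ to 3′ on the gene's strand. Capitals mark matches, on either strand, to an AP-1 motif (TGANTCA) or a Smad box (CAGAC). An E-box (CACCTG) and a Smad palindrome (GTCTAGAC) were also searched and had no match in these 6 windows. The Met window is chr6:17463707-17463956 (plus strand), that of Ror1 chr4:100095541-100095790 (plus strand), that of Ror2 chr13:53286125-53286374 (minus strand) and that of Axl chr7:25788734-25788983 (minus strand). The Mst1r windows are chr9:107906639-107906888 (plus strand) and chr9:107914753-107915002 (plus strand).
Met: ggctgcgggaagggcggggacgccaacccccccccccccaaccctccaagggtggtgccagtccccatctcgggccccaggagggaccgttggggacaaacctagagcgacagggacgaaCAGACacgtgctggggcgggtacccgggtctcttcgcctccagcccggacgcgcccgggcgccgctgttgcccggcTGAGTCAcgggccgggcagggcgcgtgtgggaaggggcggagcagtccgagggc
Ror1: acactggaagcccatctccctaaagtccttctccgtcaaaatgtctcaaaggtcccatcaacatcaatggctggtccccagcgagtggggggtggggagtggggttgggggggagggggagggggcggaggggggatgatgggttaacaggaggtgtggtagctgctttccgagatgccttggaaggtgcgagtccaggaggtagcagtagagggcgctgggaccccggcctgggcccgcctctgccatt
Ror2: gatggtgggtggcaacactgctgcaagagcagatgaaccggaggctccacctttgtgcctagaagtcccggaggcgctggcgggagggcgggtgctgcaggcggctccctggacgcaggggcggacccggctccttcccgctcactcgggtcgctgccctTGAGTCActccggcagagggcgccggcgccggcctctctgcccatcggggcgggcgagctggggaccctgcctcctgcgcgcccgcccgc
Axl: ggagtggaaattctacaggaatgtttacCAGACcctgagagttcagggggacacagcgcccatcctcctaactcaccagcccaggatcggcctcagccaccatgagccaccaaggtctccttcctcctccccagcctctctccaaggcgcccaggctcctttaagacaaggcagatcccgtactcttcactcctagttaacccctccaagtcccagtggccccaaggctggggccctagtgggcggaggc
Mst1r start 1: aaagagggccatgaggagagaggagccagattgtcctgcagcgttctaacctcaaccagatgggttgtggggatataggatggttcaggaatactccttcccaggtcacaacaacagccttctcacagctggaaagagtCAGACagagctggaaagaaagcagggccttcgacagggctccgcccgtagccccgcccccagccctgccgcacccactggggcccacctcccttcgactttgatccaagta
Mst1r start 2: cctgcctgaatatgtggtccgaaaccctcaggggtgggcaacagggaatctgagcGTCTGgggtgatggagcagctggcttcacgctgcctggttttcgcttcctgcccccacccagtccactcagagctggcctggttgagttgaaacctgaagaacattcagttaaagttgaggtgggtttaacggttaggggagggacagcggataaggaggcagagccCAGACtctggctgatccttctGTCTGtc
The Met window held 1 AP-1 match, 54 to 48 bases before the start, and 1 Smad box. Ror2, which differed in the other direction, also held 1 AP-1 match, 90 to 84 bases before its start. Ror1 had no match, Axl had 1 Smad box, and the Mst1r windows had 1 and 3. Among the windows not printed, that of Ddr1 start 3 held 1 E-box and 1 AP-1 match, although Ddr1 differed little. The window of Tyro3, which was higher, had no match. Of all 32851 promoter windows of this length, 6.75% held the AP-1 letters, 42.2% the Smad box, 17.2% the E-box and 0.167% the palindrome. Met and Ror2 each had 24 CpG pairs in the window, Ror1 8, Axl 5 and the Mst1r windows 7 and 6, beside a median of 6. No matches overlapped, and a match of letters is not a binding site.

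Among the receptors of the hepatocyte growth factor family, Met (transcript cluster 6944380) had an intensity of 1686 without and 881 with TGF-beta. The value with TGF-beta was the lower, by 1.91-fold on the log2(intensity + 1) scale (a difference of −0.94), and 10.2% of genes at level had a difference this low or lower. The difference was −0.69 after quantile normalization and −0.68 once the level-dependent trend was subtracted. All 23 Met probesets were at level and lower with TGF-beta, at a median of −0.93 ± 0.27 (SD between probesets of 1 gene, not between cultures). Of these, 1 was at level only in untreated cells and so had to be lower. Among all genes with at least 20 probesets at level, 14.9% had every one lower. The Met probesets ran from 604 to 3857 without and from 239 to 2218 with TGF-beta, so the ranges of the arrays overlapped although each probeset was lower.

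Of the 23 Met probesets, 9 were at least 2-fold lower, a call that 11.6% of all probesets at level met, and this count was 5 after centring and 1 after quantile normalization or removal of the trend. The probeset with the lowest difference, 4414831, had 781 without and 239 with TGF-beta (−1.70), and the next lay at −1.25. Probeset 4414831, counted among the 9, was the one at level only in untreated cells. At the other end, probeset 5148781 had 2780 and 2022 (−0.46). The dimmer 11 probesets had a median of −1.08 and the brighter 12 one of −0.82, as the plot of difference against level within genes shows. Over the 23 probesets, difference and mean log2 level had a Pearson r of 0.68 and a Spearman coefficient of 0.72, given as a description because the probesets share the same arrays and both measures come from the same intensities.

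Mst1r (transcript cluster 6992274), the receptor of macrophage-stimulating protein, had 239 without and 339 with TGF-beta, a difference of 0.51 that 8.31% of genes at level reached or exceeded. It was 0.89 after quantile normalization and 0.86 with the trend removed. Of its 24 probesets, 13 were at level and higher with TGF-beta, but 3 of these were at level only with TGF-beta and so had to be higher. The 10 at level in untreated cells were all higher as well, with a median of 0.83 ± 0.31 (SD). Among all genes with at least 5 probesets at level by the rule on either array, 8.62% had every one higher. The 13 had a median of 0.67 ± 0.33 (SD), and their intensities ran from 247 to 697 without and from 266 to 1396 with TGF-beta. Over all 24, the 11 below level included, the median was 0.48 and 2 were lower.

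Among the Mst1r probesets at level, the widest gap between neighbouring differences was 0.26. The widest gap was 0.46 in Met and Tyro3, 0.25 in Ddr1 and Ror1 and 0.16 in Axl, and there it set 1 probeset apart. The SD of Mst1r was ordinary, since 50.7% of genes with at least 5 probesets at level had a wider one. In 7 Mst1r probesets, below the gap, the difference was between 0.11 and 0.67, and in the other 6 between 0.93 and 1.08. Probeset 5369187 was the highest (402 and 849, 1.08), and probeset 5083837 was the lowest at level (247 and 266, 0.11). These sides were read from the values and include the 3 probesets at level only with TGF-beta. Both sets spanned similar untreated intensities, 247 to 581 and 258 to 697, but brighter probesets tended to have larger differences. By mean log2 level, the dimmer 6 had a median of 0.61 and the brighter 7 one of 1.00. Over the 13, difference and mean log2 level had a Pearson r of 0.55 and a Spearman coefficient of 0.55. As for Met, this is a description, because both measures come from the same intensities. Of the 13, 4 were at least 2-fold higher, beside 3.55% of all probesets at level, and this count was 6 after centring or quantile normalization and 7 with the trend removed. RefSeq gives Mst1r the 2 start sites shown above, but the probesets carried no positions here, so their order along the gene is not given. A link between the start sites and the gap was not tested.

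**Figure D2:**
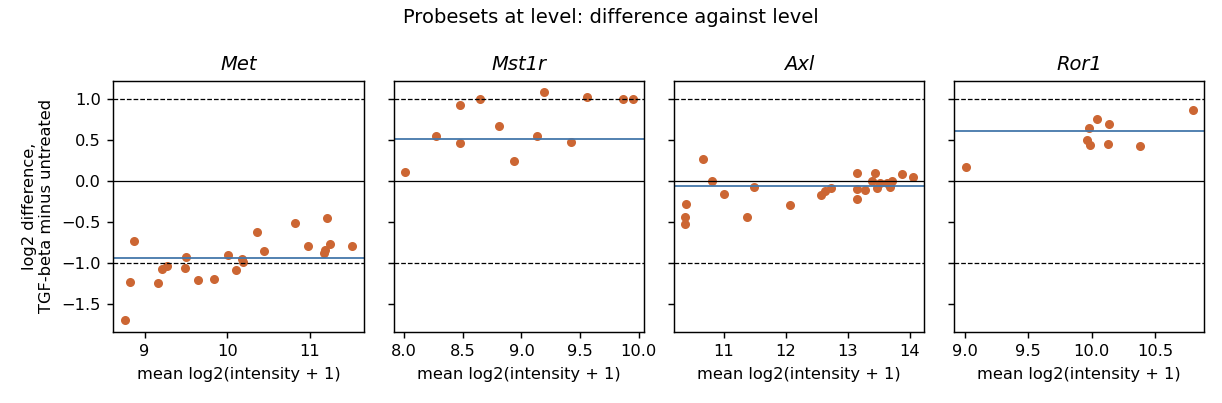
Log2 difference (TGF-beta minus untreated) against mean log2(intensity + 1) for the probesets at level of Met, Mst1r, Axl and Ror1; the blue line is the gene-level difference and dashed lines mark 2-fold. All 23 Met points (1 at level only in untreated cells) lie below 0, the 13 Mst1r points (3 at level only with TGF-beta) and the 9 Ror1 points lie above it, while those of Axl lie on both sides.

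In the Axl family, Axl (transcript cluster 6965982), whose ligand is Gas6, had 8545 without and 8207 with TGF-beta, both far above the level rule. The difference of −0.06 was −0.09 after quantile normalization and with the trend removed, but 0.08 after centring, so its direction depended on the scaling. All 25 probesets were at level, with 20 lower and 5 higher, a median of −0.08 ± 0.19 (SD) and a range from −0.53 to 0.26. After centring 17 of the 25 were higher. The lowest difference was in probeset 4976374 (1604 to 1108) and the highest in probeset 5092754 (1478 to 1771), both among the dimmer ones. Probeset 5449310, with the highest intensities of the gene, had 16634 and 17210. The SD of 0.19 was narrow, since 89% of genes with at least 5 probesets at level had a wider one.

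Tyro3 (transcript cluster 6880544) had 118 without and 179 with TGF-beta, a difference of 0.60, or 0.78 after quantile normalization and 0.68 with the trend removed. The untreated value lay just under the level rule, so the size of the difference is uncertain. At exon level 6 of 22 probesets were at level, all 6 higher, with a median of 0.87 ± 0.38 (SD). Of these, 4 were at level only with TGF-beta and so had to be higher; over all 22 the median was 0.57, with 20 higher. Probeset 4847944 stood apart in intensity, at 2774 and 4569 (0.72), while every other Tyro3 probeset was at or below 639 in both arrays. Probeset 4914502 had the highest difference (117 to 309, 1.40) and probeset 4842327 the lowest at level (253 to 303, 0.26). Of the 6, 2 were at least 2-fold higher, beside 3.55% of all probesets at level, and the 2 include probeset 4914502, at level only with TGF-beta. The count was 4 after each of the 3 scalings tried, for which no share of all probesets is given.

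Mertk (transcript cluster 6881087), the third receptor of the family, had 46.9 and 51.3, both below level, a difference of 0.13 that turned to −0.01 with the trend removed. Of its 22 probesets 20 were below level, and the pair at level, both only with TGF-beta, 5608501 (228 to 318) and 4489471 (185 to 276), had differences of 0.48 and 0.58. The ligand Gas6 (transcript cluster 6980568) had 103 and 99.9, a difference of −0.04 that was 0.09 after centring and 0.03 as the median of all its probesets. Its 18 probesets included 3 at level, with differences between 0.12 and 0.49, and 15 below. For neither gene can the signal be told from background with these values.

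Ddr1 (transcript cluster 6855123), the collagen receptor known from epithelia, had 1228 without and 1329 with TGF-beta. The difference of 0.11 was 0.35 after quantile normalization and 0.36 with the trend removed, and 22% of genes at level had a value this high or higher. Of 24 probesets 20 were at level, 15 higher and 5 lower, at a median of 0.15 ± 0.18 (SD), and 19 of the 20 were higher after each of the 3 scalings. Probeset 4474209 was the lowest (1059 to 813, −0.38) and probeset 5151697 the highest (791 to 1043, 0.40). The SD of Ddr1 was narrower than that of 90.7% of genes with at least 5 probesets at level.

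Ddr2 (transcript cluster 6764010), the fibrillar collagen receptor of mesenchymal cells, was below level in both arrays, at 57.3 and 48.4 (−0.24). Of its 19 probesets 18 were below level, and their values went both ways, with 8 of the 19 higher and 11 lower. The probeset at level, 5400025, which was so only with TGF-beta, had 164 and 288 (0.81), opposite in sign to the gene-level value. No rise or fall of Ddr2 can be read from these values.

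The Wnt5a receptors Ror1 and Ror2 had values above those of untreated cells. Ror1 (transcript cluster 6915801) had 796 without and 1219 with TGF-beta, 1.53-fold higher (0.61). The difference was 0.91 both after quantile normalization and with the trend removed, and 5.72% of genes at level reached the value of 0.61. Of 11 probesets 9 were at level and all 9 were higher, with a median of 0.50 ± 0.21 (SD). The highest was probeset 4510969 (1323 to 2405, 0.86) and the lowest at level was probeset 5612493 (483 to 544, 0.17). The untreated values of the other 7 lay between them, and no probeset at level pointed the other way.

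Ror2 (transcript cluster 6813244) had 113 and 179, a difference of 0.65 that 5.07% of genes at level reached, with the untreated value just below the level rule. It was 0.83 after quantile normalization and 0.73 with the trend removed. Of its 12 probesets 4 were at level and higher, at a median of 0.66 ± 0.35 (SD), but 2 of the 4 were at level only with TGF-beta and so had to be higher. Over all 12 the median was 0.50, with 10 higher. Probeset 4727080 was the brightest at 938 and 1317 (0.49), and probeset 4561634 differed most among the 4 (190 to 380, 1.00). The other 8 lay below level in both arrays and included differences from −0.56 to 1.48.

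**Figure D3:**
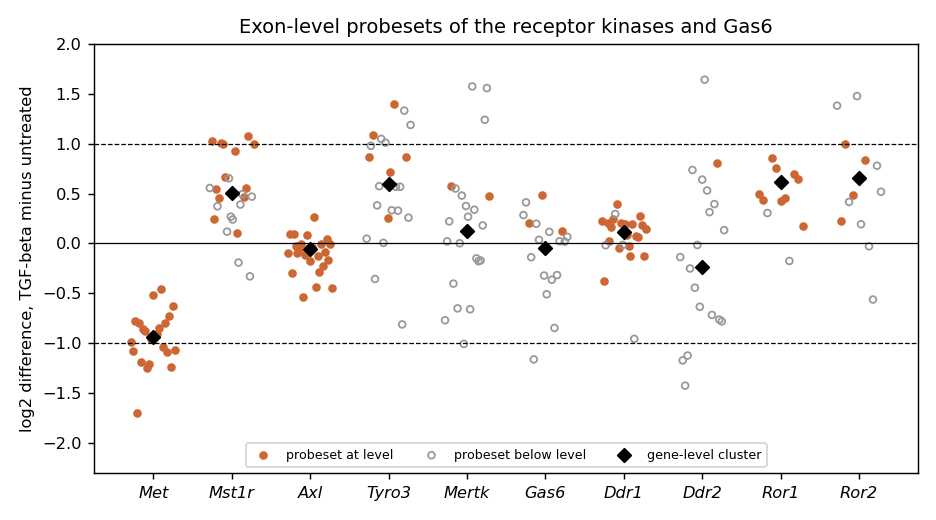
Log2 difference of every exon-level probeset (1 point each; filled at level, open below level) for the 9 receptor kinases and Gas6, with the gene-level difference as a diamond and dashed lines at 2-fold. The 23 Met probesets lie between −1.70 and −0.46, the 25 of Axl between −0.53 and 0.26, and Mertk, Gas6 and Ddr2 consist mostly of open points on both sides of 0.

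Over all 10 genes, 106 of 200 probesets were at level. The 6 genes with at least 5 of them (Met, Mst1r, Axl, Tyro3, Ddr1 and Ror1) held 96, and for these the difference of each probeset was set against the median of the other probesets of its gene. None departed by 1 or more on the log2 scale, a call that 3.64% of all 108360 probesets so measured met. The Met probeset 4414831 came nearest (−0.79), followed by Mst1r probeset 5083837 (−0.69) and Tyro3 probeset 4842327 (−0.62). Of the 106 probesets, 58 were higher with TGF-beta, beside 32.6% of all probesets at level, but 12 of them were at level only with TGF-beta and had to be higher. Of the 94 at level in untreated cells, 46 were higher. The 32.6% is for the rule on either array and is not a like background for these 94. Of the 48 that were lower, 23 belonged to Met, 1 of them at level only in untreated cells, and 20 to Axl.

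**Figure D4:**
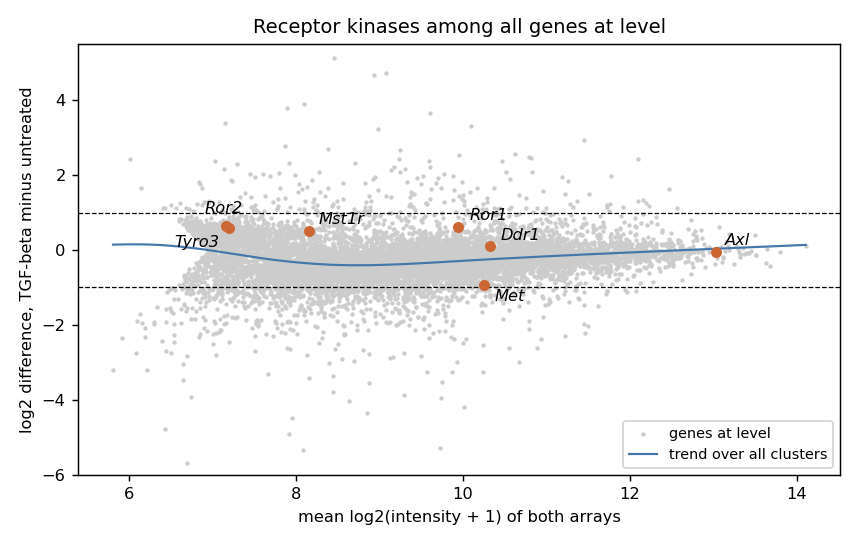
Gene-level log2 difference against mean log2(intensity + 1) for all 9159 genes at level (grey) and the 7 receptors at level (orange), with the trend over all clusters (blue) and dashed lines at 2-fold. Met lies below the trend, at −0.94, Ror1, Ror2, Tyro3 and Mst1r lie above it, and all 7 lie inside the 2-fold lines.

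Partner genes of each receptor family were counted in the same way, and each count below is to be read against the 2.28% of all genes at level that were at least 2-fold higher and the 8.7% that were lower. With 0 or 1 gene past 2-fold in each direction, the counts of the 4 partner lists are descriptions of the named genes and not results about the lists. In the list for Met and Mst1r, 21 of 22 genes were measured and 17 were at level; none was at least 2-fold higher, 1 was lower and the median was −0.10, or 0.20 after quantile normalization. The lower gene was Spint2, an inhibitor of the proteases that activate the precursors of Hgf and macrophage-stimulating protein. It had 2837 without and 1092 with TGF-beta (−1.38), and its 10 probesets all lay lower, at −1.36 ± 0.21 (SD). The ligand Hgf was below level in both arrays (22.8 and 24.6). Mst1 was also below level as a gene (70.0 and 91.9, 0.39), and 5 of its 26 probesets were at level, 1 of them only with TGF-beta. Over all 26 the median was 0.40, with 20 higher.

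Of the partners of the Axl family, 15 of 19 were measured and 14 were at level, with none higher, 1 lower and a median of −0.27. The lower gene was Vav3, a guanine nucleotide exchange factor, at 287 and 112 (−1.36), with 17 of 18 probesets lower. The treated value was under the level rule, which leaves the size uncertain. The ligand Pros1 had 108 and 141 (0.37), with 2 probesets at level. As a gene, Pros1 reached the level rule only with TGF-beta and so had to be higher.

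For the Ddr receptors, all 20 genes of the list of collagens, adaptors and matrix proteases were measured, 15 at level, with 1 higher, 1 lower and a median of 0.14, or 0.55 after quantile normalization. Col5a1, a chain of the fibrillar collagen V, was higher (179 to 383, 1.09). Mmp13, a collagenase, was lower (1171 to 293, −2.00), with all 12 probesets lower. Col1a1, the main chain of collagen I, had 199 and 389 (0.97), and passed 2-fold after centring (1.10) and after quantile normalization (1.32). Col6a1, a chain of collagen VI, differed as much in the other direction (1014 to 517, −0.97), with 23 of 28 probesets at level lower. Col1a1 and Col6a1 were under 2-fold without scaling and were chosen after their values were seen.

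In the Wnt5a list of Ror1 and Ror2, 21 of 25 genes were measured and 19 were at level; 1 was higher, none was lower and the median was 0.04, or 0.20 after quantile normalization. Fzd2, a Frizzled receptor of Wnt proteins, was the higher one. It had 486 without and 1256 with TGF-beta (1.37), and its 5 probesets at level had a median of 1.29 ± 0.64 (SD). Wnt5a itself was below level in both arrays (38.0 and 46.0).

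The other receptor tyrosine kinases served as the comparison. Of 49 listed, 42 were measured and 20 were at level, with 2 at least 2-fold higher, 6 lower (beside 2.28% and 8.7% of all genes at level) and a median of −0.23, which was 0.06 after quantile normalization. The lowest were the ephrin receptor Epha7 (1190 to 301, −1.98, all 21 probesets lower) and the fibroblast growth factor receptor Fgfr2 (−1.86). The highest were Ret, a receptor of the glial cell line-derived neurotrophic factor family, and Fgfr1 (1.80). Ret had 78.6 in untreated cells, below the level rule, and 284 with TGF-beta (1.84). The differences of the 7 described receptors lay between those 4, from −0.94 to 0.65. By the nearest gene-level difference, a likeness that rests on 1 difference from 2 arrays, Met was closest to the ephrin receptor Ephb4 (1564 to 816, −0.94) and Mst1r to the epidermal growth factor receptor Egfr (0.53). Axl and Ddr1 were closest to Fgfr3 (0.09), and Tyro3, Ror1 and Ror2 to Aatk (0.56). For Axl the sign was opposite to that of Fgfr3, at a distance of 0.14. At exon level Fgfr3 had a median of 0.56, with 6 of 7 probesets at level higher, so its gene-level value was not matched there.

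**Figure D5:**
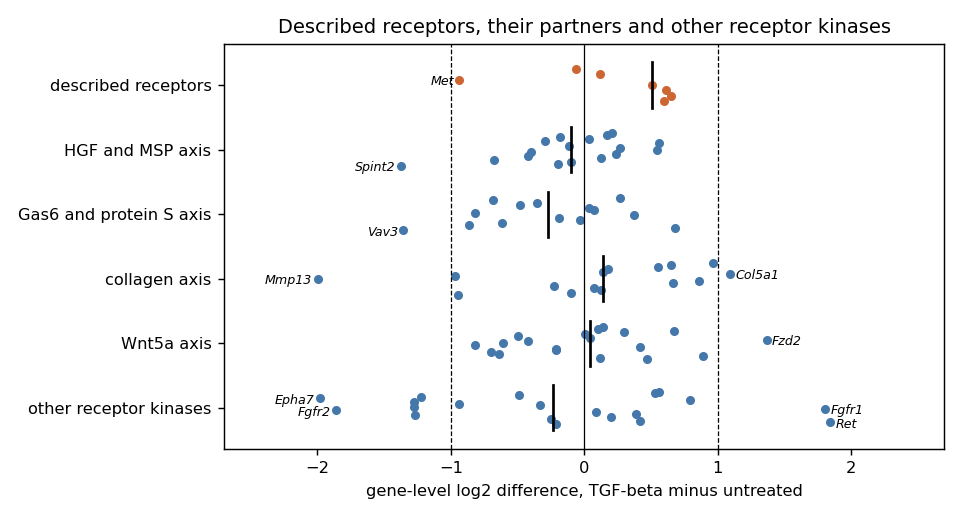
Gene-level log2 difference (TGF-beta minus untreated) of the genes at level among the 7 described receptors (orange), their 4 partner lists and the other receptor tyrosine kinases (blue), 1 point a gene; black bars are medians, dashed lines mark 2-fold and names are given for Met and for the named genes past 2-fold. Spint2, Vav3 and Mmp13 lie past the lower line and Fzd2 and Col5a1 past the higher one, while the receptors lie inside both.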

How the data were processed

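RNA of untreated and TGF-beta-treated NMuMG cells was measured on Affymetrix exon arrays. The deposited values are intensities on a linear scale, which the authors had summarised to 1 value per cluster or probeset; how they were background-corrected, normalized and summarised, and on which build, is not given in the sources here. The medians of the 2 columns were 130.1 and 120.1 at gene level and 297 and 239.5 at exon level. Genes were named from the platform annotation for the 14996 clusters and 209279 probesets with 1 symbol, updated through RefSeq (GRCm38.p6, for names only). All 10 genes had 1 cluster each. Differences were taken as log2 of intensity plus a pseudocount of 1. Quantile normalization, centring on the median difference, a lowess trend (fraction 0.3), other level and size rules and pseudocounts, and exon-level summaries were tried as alternatives. With 1 array per group, precision is limited by the number of arrays and no test was run. The genes, lists and rules were chosen with earlier results of these data known. Named genes were the 10 described, up to 4 past 2-fold in each list, the ligands Hgf, Mst1, Pros1 and Wnt5a, and the nearest other receptor kinases. Named probesets were the highest, lowest and departing ones by difference. The brightest probesets of Axl, Tyro3 and Ror2 were added for their intensity, outside this rule. Other additions are said to be chosen later. Promoter sequences were taken as stored on the gene's strand (a purine stood at the start in 70.1% of plus-strand and 69.8% of minus-strand genes). The scripts were tested on simulated data. Python 3.11.15, pandas 2.3.3, scipy 1.17.1 and statsmodels 0.14.6 were used.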

Additional observations from a re-analysis of the deposited data

How the results depend on the processing

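No paired analysis was possible because each group held 1 array, and for the same reason no array could be left out. No described receptor reached 2-fold under any of the level rules, scalings, pseudocounts or exon-level summaries, each tried alone. With a scaling and the exon-level median at level combined, Tyro3 passed it (1.00 after centring, 1.13 after quantile normalization, 1.09 with the trend removed). Mst1r did so with the trend removed (1.00), and the 1 Ddr2 probeset at level after quantile normalization (1.07) and trend removal (1.03). These medians include probesets at level only with TGF-beta, which had to be higher. Met stayed negative (−0.97 to −0.68) and Mst1r, Tyro3, Ddr1, Ror1 and Ror2 positive in the 8 alternatives that can change the value of a single gene (the level rules and the cluster choice cannot), while the sign changed for Axl in 1, Mertk in 1, Gas6 in 3 and Ddr2 in 1. The median of the described genes at level was 0.12 with no level rule (all 10 genes, Gas6 among them), 0.028 when the rule was the 75th percentile and 0.78 after quantile normalization. At 1.5-fold, 3 receptors were higher and 1 lower. Of the partners, the Met and Mst1r list had 2 of 17 at level lower, and the Axl family list 1 higher and 5 lower of 14. The Ddr list had 5 higher and 3 lower of 15 and the Ror list 3 higher and 4 lower of 19. These counts are to be read against all genes at level, of which 6.25% were higher and 25.3% lower by 1.5-fold. They are descriptions and not results about the lists. With the 75th percentile rule the Axl family list had 0 lower, the Ddr list 0 higher and the other receptor kinases 1 higher and 3 lower. After each of the 3 scalings the Ddr list had 2 higher and the Ror list 2 higher, and after quantile normalization or trend removal the other receptor kinases had 3 lower. The probesets past 2-fold were 6 higher and 9 lower, beside 3.55% and 11.6% of all probesets at level. These counts became 11 and 5 after centring, 14 and 1 after quantile normalization and 15 and 1 with the trend removed. With the 75th percentile rule they were 2 and 4. The scalings shift all differences by their construction, and the stricter rule leaves fewer features. Shares of all genes and probesets are given, here and above, only for unscaled values under the main level rule. The counts under the scalings and the stricter rule are therefore descriptions and not results about the described genes. No probeset departed from its gene in any alternative.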

Other observations

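The genes in this paragraph were chosen after their values were seen. Within the Wnt5a list, the Frizzled receptors did not share a direction: beside Fzd2 at 1.37, Fzd7 had 563 without and 319 with TGF-beta (−0.82) and Fzd5 had 699 and 457 (−0.61). The planar polarity proteins Vangl2 (265 to 491, 0.89) and Vangl1 (766 to 492, −0.64) also differed in opposite directions. Vangl2 passed 2-fold after centring (1.03) and after quantile normalization (1.26). Among adaptors, Pik3r1, a regulatory subunit of phosphoinositide 3-kinase, had 1464 and 828 (−0.82), and Tns2, a tensin, had 1266 and 695 (−0.86). Wwc1, a scaffold protein reported to bind Ddr1, had 1339 and 693 (−0.95), with all 14 probesets lower.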
